A study of Mus musculus with 2 samples.

Results

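The 9 genes described here encode transcription factors that pattern the early eye, namely Vax1, Vax2, Tbx2, Tbx3, Tbx5, Pax2, Foxd1, Nr2f1 and Nr2f2. They were chosen as a list of named regulators of the dorsal-ventral axis, the naso-temporal axis and the optic stalk, by their known roles, and make up 9 of the 31253 genes to which rows of the deposited table could be assigned. The first library came from a culture of mouse neural retinal progenitor cells (mNRPCs) that had reached passage 24, grown out of dissociated neural retina of adult mice on coated dishes in a defined medium. That medium contained basic fibroblast growth factor (bFGF) and CHIR99021, a small molecule that inhibits glycogen synthase kinase 3. The second library came from uncultured mouse retina, and the age of those mice was not given. Both samples are labelled with the C57BL/6 strain. The study describes the cultured cells as an established line, and the number of animals behind each sample is not stated. There was 1 library per group, so the differences below have no replicate error and no p-values.

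During eye development, the optic cup is divided into territories by transcription factors that restrain one another. Signalling by bone morphogenetic proteins favours the T-box genes Tbx2, Tbx3 and Tbx5 on the dorsal side, while hedgehog signals from the midline favour Vax1, Vax2 and Pax2 in the ventral cup and the optic stalk. Foxd1 marks the temporal side of the retina. Nr2f1 and Nr2f2 encode the orphan nuclear receptors COUP-TFI and COUP-TFII, which together are needed to separate optic stalk, pigment epithelium and neural retina.

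Levels were read as FPKM, fragments normalised to transcript length and to mapped fragments. Depth was estimated at 6.53e+06 fragments in mNRPCs and 4.97e+06 in retina, and 11076 and 12639 genes reached 1 FPKM. The comparison took in the 13780 genes that did so in either library. A gene was called higher or lower in mNRPCs when the log2 ratio of (mNRPC FPKM + 1) to (retina FPKM + 1) was at least 1 in size, and 24.5% of compared genes were called higher and 30.0% lower. The intervals given are 95% intervals for counting error alone, from estimated fragment numbers. As these are bulk samples, fewer cells of a type and less RNA per cell cannot be told apart. Markers of mature retinal cells were abundant in the retina library, with a summed level of 9103 FPKM for 4 rod genes against 4.85 FPKM in mNRPCs. Of 6 progenitor markers, Sox2, Ccnd1 and Nes were higher in mNRPCs, but Rax was listed at 0 there, against 81.7 FPKM in retina.

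Of the 9 patterning factors, 5 passed the filter of 1 FPKM. Nr2f1 and Nr2f2 were called higher in mNRPCs, and Vax2, Tbx2 and Tbx3 were called lower. The other 4, Vax1, Tbx5, Pax2 and Foxd1, were below 1 FPKM in both libraries and were listed at 0 in mNRPCs. A count of 2 higher and 3 lower among so few genes is to be read beside the 24.5% and 30.0% of all compared genes, and it does not set the group apart. By sums over rows, the factors in mNRPCs followed the order Nr2f2, Nr2f1, Tbx2 and Vax2. In retina the order was Vax2, Tbx2, Nr2f2, Nr2f1, Tbx3, Tbx5, Foxd1, Vax1 and Pax2, so the pair at the head of one order was the pair that came next in the other.

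**Figure D1:**
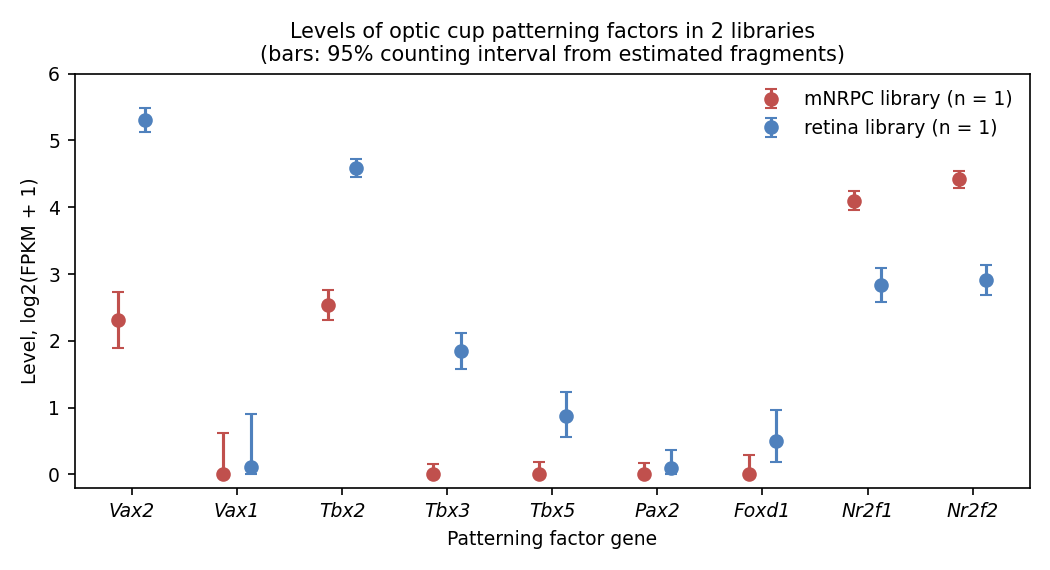
Level of each patterning factor in the mNRPC library and the retina library, as log2(FPKM + 1) on the vertical axis, with 1 library per point and bars for the 95% counting interval. Vax2 and Tbx2 stand highest in retina at 38.5 and 23.0 FPKM, Nr2f2 and Nr2f1 stand highest in mNRPCs at 20.3 and 16.1 FPKM, and 5 factors are listed at 0 in mNRPCs.

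Vax2, a homeodomain factor of the ventral retina, lies at chr6:83711239-83738313 on the plus strand (RefSeq, GRCm38.p6). Its level was 3.98 FPKM in mNRPCs and 38.5 FPKM in retina. The counting intervals, 2.73 to 5.61 FPKM and 33.8 to 43.8 FPKM, did not overlap. The level was 9.68-fold lower in mNRPCs, and the log2 ratio of -2.99 (-3.44 to -2.54) was the lowest of the 9 factors with the added 1 (with 0.1 added, Tbx3 was lower at -4.76), and 7.31% of compared genes were lower still. About 32.3 fragments stood behind the mNRPC value and 238 behind the retina value. Vax2 was thus a gene of the upper range in retina, above 86.0% of compared genes, and of the lower range in mNRPCs, above 34.7%.

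Vax1, the paralog of Vax2 that acts mainly in the optic stalk and the ventral forebrain, lies at chr19:59164480-59170397 on the minus strand. It was listed at 0 in mNRPCs, with 0.0779 FPKM in retina, all of it on a predicted transcript. The retina value corresponds to an estimated 0.404 fragments, while 3 fragments would give 0.440 FPKM in mNRPCs and 0.578 FPKM in retina. Vax1 was therefore not detectable at this depth in either sample, and only Vax2 represented the pair.

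Of the dorsal T-box factors, Tbx2 was the one present in both samples. It encodes a repressor that takes part in dorsal eye identity and lies at chr11:85832615-85841948 on the plus strand. Its level was 4.79 FPKM in mNRPCs (3.95 to 5.76) and 23.0 FPKM in retina (20.9 to 25.4), from an estimated 113 and 415 fragments. This was a 4.81-fold lower level in mNRPCs and a log2 ratio of -2.05 (-2.32 to -1.79). In mNRPCs the intervals of Tbx2 and Vax2 overlapped, so the order of these neighbours is not resolved there, whereas in retina Vax2 lay above Tbx2 without overlap. A gene with a dorsal domain and a gene with a ventral domain in the embryo were therefore both lower in mNRPCs.

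Tbx3, the closest paralog of Tbx2 and likewise a repressor, lies at chr5:119670534-119684724 on the plus strand. It was listed at 0 in mNRPCs on each of its 3 transcript rows, with 2.60 FPKM in retina (1.99 to 3.33), an estimated 62.1 fragments. In the mNRPC library 3 fragments would give 0.0946 FPKM. No fold is given against a value of 0, and the log2 ratio of -1.85 (-2.12 to -1.54) depends on the added 1. In retina, NM_198052 held 63.5% of the Tbx3 level (1.65 FPKM) and NM_011535 held 35.5% (0.924 FPKM). These transcripts share most of their sequence, so the division between them rests on estimation.

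Tbx5, the T-box factor with the most dorsally confined domain in the embryonic retina, lies next to Tbx3 at chr5:119796514-119885220 on the plus strand. It was listed at 0 in mNRPCs, with 0.837 FPKM in retina (0.482 to 1.35), an estimated 16.4 fragments. The retina level was spread over 7 transcript rows of 0.0178 to 0.208 FPKM each, so that no single form stood out. Tbx5 stayed under the filter as deposited, but passed it and was called lower (log2 ratio -1.55) when both libraries were rescaled to a common FPKM sum. In retina the T-box members followed the order Tbx2, Tbx3 and Tbx5, with no overlap between the counting intervals of neighbours.

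Pax2, the paired-box factor of the optic stalk and later of optic nerve astrocytes, lies at chr19:44746601-44838269 on the plus strand. It was listed at 0 in mNRPCs, with 0.0669 FPKM in retina, an estimated 1.45 fragments, below the 0.138 FPKM that 3 fragments would give. This value comes from 1 of the 10 RefSeq transcripts of the gene, and the other 9 were not among the rows used here. For comparison, 4 astrocyte markers summed to 0.219 FPKM in mNRPCs and 40.8 FPKM in retina, with Gfap listed at 0 in mNRPCs and at 5.33 FPKM in retina. On the 1 transcript with a row, Pax2 was not detectable at this depth in either sample.

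Foxd1, a forkhead factor of the temporal retina, lies at chr13:98354245-98356705 on the plus strand and has a single transcript row. It was listed at 0 in mNRPCs, with 0.414 FPKM in retina (0.136 to 0.961), an estimated 5.07 fragments. The intervals of Tbx5, Foxd1, Vax1 and Pax2 in retina overlapped from each neighbour to the next, so the order of neighbours is not resolved, although Tbx5 lay above Pax2 without overlap.

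The COUP-TF genes were called in the opposite direction. Nr2f1 lies at chr13:78188971-78198873 on the minus strand. Its level was 16.1 FPKM in mNRPCs (14.5 to 18.0) and 6.17 FPKM in retina (5.01 to 7.52), from an estimated 338 and 98.3 fragments. This was 2.62-fold higher in mNRPCs, with a log2 ratio of 1.26 (0.97 to 1.55), and 20.0% of compared genes had a higher ratio. The lower bound of this interval lies just under the threshold of 1, and with both libraries rescaled to a common FPKM sum the log2 ratio was 0.83, short of a call. The curated transcript NM_010151 held 99.5% of the Nr2f1 level in mNRPCs and 90.9% in retina, and the predicted XM_006517085 was at 0.0731 and 0.560 FPKM.

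Nr2f2 lies at chr7:70351946-70366746 on the minus strand. Summed over its rows, it was the most abundant of the 9 factors in mNRPCs, at 20.3 FPKM (18.5 to 22.3), and stood at 6.51 FPKM in retina (5.43 to 7.74). About 469 and 127 fragments stood behind these values. The level was 3.13-fold higher in mNRPCs and the log2 ratio was 1.51 (1.25 to 1.76), which 16.7% of compared genes exceeded. By these sums Nr2f2 lay above Nr2f1 without overlap of the intervals in mNRPCs, while in retina the intervals of the pair overlapped. The order in mNRPCs depends on the summing, since by the highest row of each gene Nr2f1 (16.1 FPKM) lay above Nr2f2 (11.9 FPKM), and 4 of the 6 Nr2f1 transcripts have no row here. Nr2f1 ranked above 38.4% of compared genes in retina and above 65.2% in mNRPCs, and Nr2f2 above 39.8% and 70.5%. The transcripts of the pair had 10 words of 50 bases in common, 0.196% of those of Nr2f1 and 0.117% of those of Nr2f2, which leaves little sequence in which their reads could be exchanged. Among the T-box members and between Vax1 and Vax2 the number of shared words was 0.

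**Figure D2:**
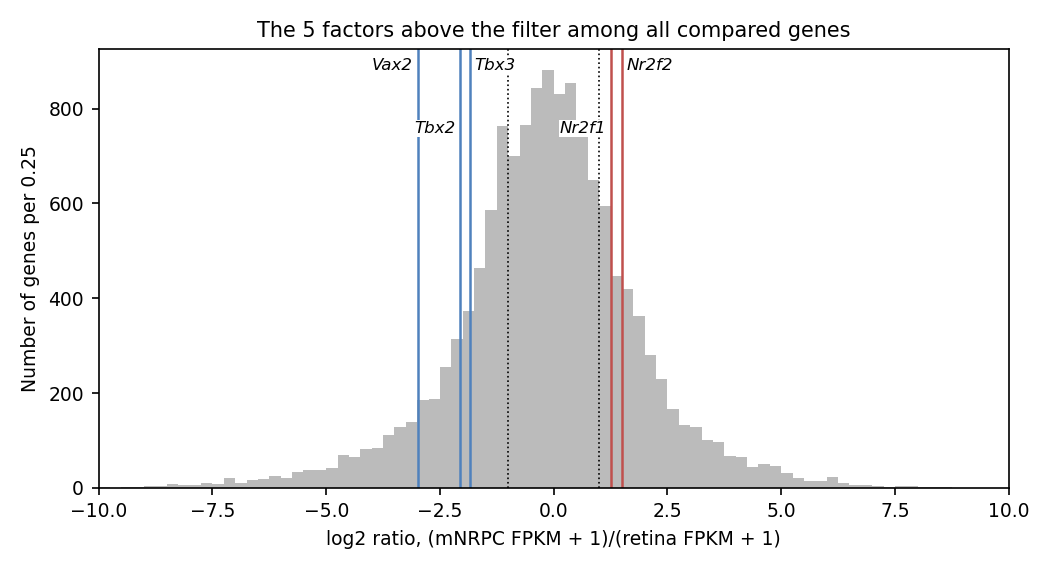
Number of compared genes (vertical axis) in bins of 0.25 of the log2 ratio of (mNRPC FPKM + 1) to (retina FPKM + 1), with dotted lines at the thresholds and coloured lines at the 5 factors that passed the filter. Vax2, Tbx2 and Tbx3 lie on the lower side at -2.99, -2.05 and -1.85, and Nr2f1 and Nr2f2 on the higher side at 1.26 and 1.51.

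Nr2f2 was the only compared member with more than 1 form well above 0 in mNRPCs. NM_009697, which codes for the full receptor and starts at position 70360593 of chromosome 7 in GENCODE, was at 11.9 FPKM in mNRPCs and 5.06 FPKM in retina, 2.35-fold higher. NM_183261, which starts further upstream at position 70366735, was at 5.48 and 0.717 FPKM, 7.64-fold higher. The upstream form thus held 26.9% of the Nr2f2 level in mNRPCs and 11% in retina, while NM_009697 held 58.4% and 77.7%. The predicted forms XM_006540577 and XM_006540578 were at 0.586 and 2.41 FPKM in mNRPCs, against 0.454 and 0.280 FPKM in retina. XM_006540577 thus differed little between the libraries, by less than their FPKM sums (616860 in mNRPCs and 432256 in retina), while each of the other 3 rows was more than 2-fold higher in mNRPCs. Because these forms share their 3′ exons, reads were divided among them by estimation, and the shares are less certain than the sum.

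**Figure D3:**
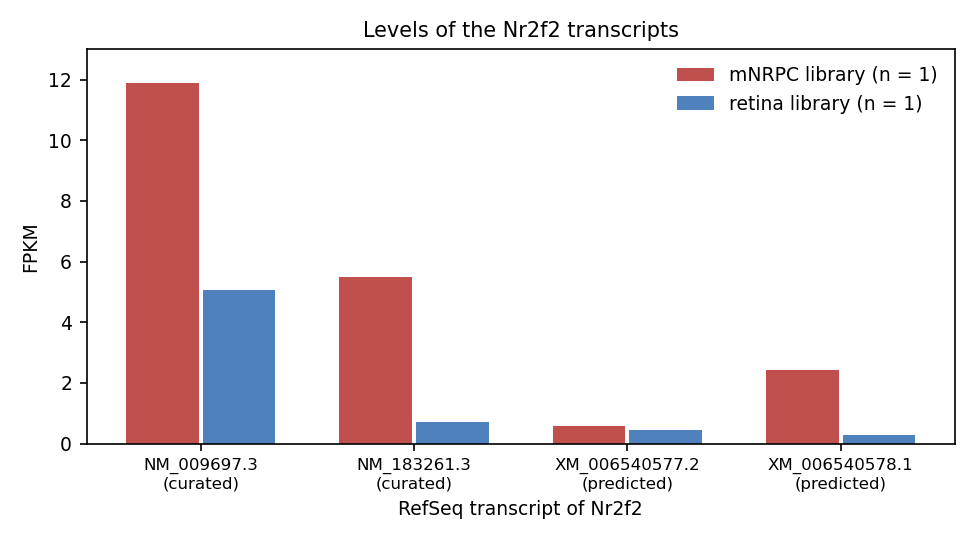
FPKM of the 4 RefSeq transcripts of Nr2f2 (horizontal axis) in the mNRPC library and the retina library, 1 library per bar and no error bars. NM_009697, NM_183261 and XM_006540578 are higher in mNRPCs, at 11.9 against 5.06, 5.48 against 0.717 and 2.41 against 0.280 FPKM, and XM_006540577 differs little, at 0.586 against 0.454 FPKM.

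As the mNRPC medium held an inhibitor of glycogen synthase kinase 3, a kinase of the Wnt pathway, the 250 bases before the RefSeq start of each factor were searched for a TCF/LEF site. Whether TCF/LEF factors were active in these cells was not measured here. The letters searched were ATCAAAG, or CTTTGAT on the opposite strand, and 3.21% of the 32851 windows of equal length in the RefSeq promoter table hold them. Windows were used for Nr2f1, Nr2f2, Pax2, Foxd1 and Vax1, and those for Vax2, Tbx2, Tbx3 and Tbx5 were not analysed here. Nr2f2 and Vax1 each hold 1 match, 114 and 216 bases before the start. The first bases after the RefSeq start were found in a GENCODE transcript for Nr2f2 but not for Vax1, so the start behind the Vax1 window is less certain. These windows are printed because one belongs to a factor called higher in mNRPCs and the other to a factor that was not detectable. Both are from RefSeq on GRCm38.p6, read 5′ to 3′ on the minus strand of the gene, at chr7:70366747-70366996 for Nr2f2 and chr19:59170398-59170647 for Vax1, with the match in capitals.
Nr2f2: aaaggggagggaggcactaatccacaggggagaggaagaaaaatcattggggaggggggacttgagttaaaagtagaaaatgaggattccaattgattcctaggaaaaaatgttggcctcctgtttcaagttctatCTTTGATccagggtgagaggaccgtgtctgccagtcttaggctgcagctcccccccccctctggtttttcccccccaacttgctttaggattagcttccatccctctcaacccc
Vax1: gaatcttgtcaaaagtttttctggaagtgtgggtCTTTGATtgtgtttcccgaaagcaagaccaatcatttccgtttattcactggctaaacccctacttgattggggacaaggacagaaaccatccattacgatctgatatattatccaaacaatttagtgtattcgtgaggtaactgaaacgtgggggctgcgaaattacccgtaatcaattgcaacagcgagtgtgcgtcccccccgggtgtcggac
A match is a description of the letters and was found at a gene with a high level in mNRPCs and at one listed at 0. The ratio of observed to expected CpG was 0.064 for Nr2f2 and 0.878 for Vax1, against a median of 0.373 over all windows, so these windows lie on opposite sides of the median in CpG content. The Nr2f2 window belongs to the start of the upstream form, not to that of NM_009697, and lies in an exon of a transcript of the noncoding gene B130024G19Rik on the opposite strand in GENCODE. The nuclear receptor half-site AGGTCA or TGACCT (14.0% of all windows), the T-box half-site GGTGTGA or TCACACC (3.33%) and the homeodomain letters TAATTA (4.84%) were found in none of the windows of the 5 genes.

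Noncoding RNA genes start close to several of the factors on the opposite strand. Vax2os, whose start lies 962 bases from that of Vax2, was at 0.855 FPKM in mNRPCs and 206 FPKM in retina, a 241.2-fold lower level and a log2 ratio of -6.80 (-7.09 to -6.48). Next to Nr2f1, A830082K12Rik was at 14.5 FPKM in mNRPCs and 1.52 FPKM in retina, 9.56-fold higher, with a log2 ratio of 2.62 (2.02 to 3.19). Next to Nr2f2, B130024G19Rik was at 3.85 FPKM in mNRPCs and 0.205 FPKM in retina, with a log2 ratio of 2.01 (1.40 to 2.41) and an estimated 2.07 fragments in retina. In these 3 pairs the noncoding gene was on the same side as the coding gene. The log2 ratio of the noncoding gene was larger in size, without overlap of the intervals in the Vax2 and Nr2f1 pairs. In the Nr2f2 pair the intervals overlapped (1.25 to 1.76 for Nr2f2), so the order in size is not resolved there. The deposited transcripts matched to GENCODE share no exon bases for Vax2 and Nr2f2 and 103 bases for Nr2f1. The deposited transcripts without such a match, among them the predicted Nr2f2 forms, were not compared. Over all GENCODE exons the Nr2f2 pair shares 643 bases. Since use of strand in the quantification is not stated, reads from shared bases cannot be assigned to one strand. 2610027K06Rik, 227 bases from the start of Tbx2, was listed at 0 in mNRPCs, with 0.471 FPKM in retina, an estimated 4.86 fragments. It was under the filter, and its log2 ratio of -0.56 was smaller in size than the -2.05 of Tbx2. No values were matched for Tbx3os1, which starts 974 bases from Tbx3 on the opposite strand, for Gm32943 and Gm25054 within Vax2, or for Gm5563 within Tbx5. Mir6405 and 1700039E22Rik, within Pax2, were listed at 0 in both libraries.

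**Figure D4:**
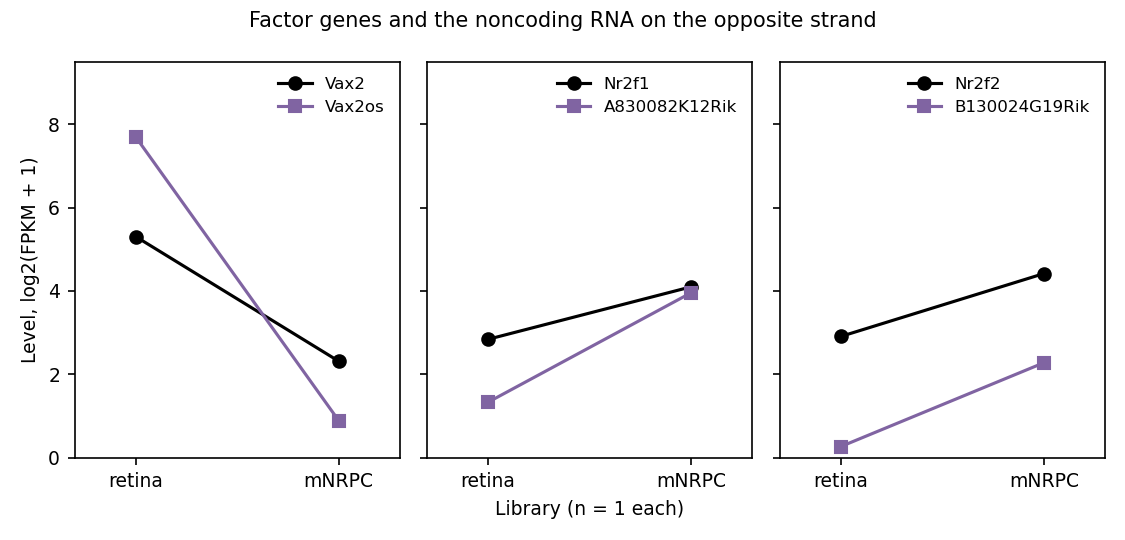
Level as log2(FPKM + 1) in the retina library and the mNRPC library for Vax2, Nr2f1 and Nr2f2 (circles) and the noncoding gene that starts nearby on the opposite strand (squares), with 1 library per point. Vax2os goes from 206 FPKM in retina to 0.855 FPKM in mNRPCs beside the lower Vax2, and A830082K12Rik and B130024G19Rik are higher in mNRPCs beside Nr2f1 and Nr2f2.

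The factors were also set among their families. Of 4 Vax and Emx genes, Vax2 held nearly the whole level in retina, and the Vax members made up 99.8% of the family FPKM there but 14.7% in mNRPCs. Emx2, a homeobox gene of the forebrain and the urogenital system, was at 23.1 FPKM in mNRPCs and 0.0727 FPKM in retina, a log2 ratio of 4.49 (4.09 to 4.65) with an estimated 1.05 fragments in retina. The T-box members made up 52.3% of the family level in retina and 15.0% in mNRPCs. Of 17 T-box genes 7 were compared, 1 was higher and 5 were lower, Tbx2 and Tbx3 among these, with a median log2 ratio of -1.49. Over all compared genes 24.5% were higher and 30.0% lower, with a median of -0.12, and the family was not tested against these. The higher gene was Tbx20, known from heart development, at 20.4 FPKM in mNRPCs and 0.447 FPKM in retina, a log2 ratio of 3.88 (3.65 to 4.08). Among the lower genes outside the list, Mga was at 5.46 and 18.3 FPKM, Eomes was at 0.0360 and 1.91 FPKM, and Tbr1 was listed at 0 and at 1.38 FPKM. Tbx6, at 0.437 and 1.51 FPKM, was within 2-fold on the ratio scale. Tbx20 was the most abundant T-box gene in the mNRPC library, and Tbx2 was that in the retina library.

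Among 9 Pax genes only Pax6 and Pax9 were compared. Pax6, a regulator of the whole eye field, was at 122.6 FPKM in mNRPCs and 100.7 FPKM in retina, and Pax9 was at 1.92 FPKM in mNRPCs against a listed 0 in retina. None of the 4 FoxD genes reached 1 FPKM, and Foxd2 was at 0.381 and 0.113 FPKM. Of 7 NR2 receptors 3 were called higher, 2 were called lower and 2 lay between, with a median log2 ratio of 0.49, beside 24.5% higher, 30.0% lower and -0.12 over all compared genes. The COUP-TF members made up 42.2% of the family level in mNRPCs against 3.49% in retina. Most of the retina level of the family belonged to Nr2e3, the photoreceptor-specific receptor, at 0.212 FPKM in mNRPCs and 318 FPKM in retina (log2 ratio -8.04). Nr2f6, which encodes the third COUP-TF-related receptor, was at 32.2 and 8.55 FPKM (1.80), so the 3 NR2F genes were called higher as deposited, Nr2f1 not after rescaling to a common sum. Nr2e1 was listed at 0 in mNRPCs, with 3.94 FPKM in retina. Nr2c1, at 8.96 and 6.10 FPKM, and Nr2c2, at 8.60 and 13.5 FPKM, were within 2-fold.

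**Figure D5:**
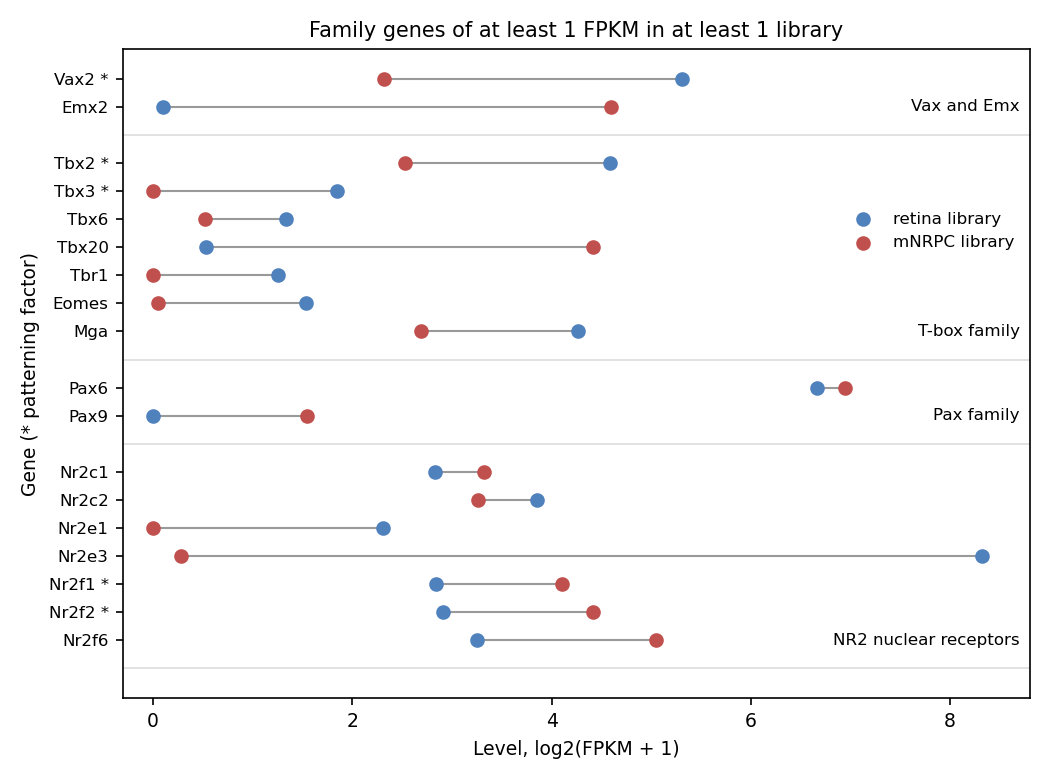
Level as log2(FPKM + 1) in the retina library and the mNRPC library for each gene of 4 families that reached 1 FPKM in at least 1 library, with 1 library per point and patterning factors marked by an asterisk. Vax2 and Emx2 are reversed in order between the libraries at 38.5 and 0.0727 FPKM in retina against 3.98 and 23.1 FPKM in mNRPCs, and Tbx20 stands above the other T-box genes in mNRPCs at 20.4 FPKM.

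Signals and regional genes that accompany these factors were read from short lists, whose counts are to be set beside the 24.5% higher and 30.0% lower over all compared genes and the median log2 ratio of -0.12. No list was tested. In the dorsal list of 7 genes 4 were compared, of which 2 were higher and 1 was lower (median log2 ratio 1.46). Aldh1a1, the retinoid enzyme of the dorsal retina, was at 1.61 FPKM in mNRPCs and 30.3 FPKM in retina (-3.59), while the dorsal ephrin Efnb2 was at 46.2 and 4.59 FPKM (3.08). Efnb1 was at 22.5 and 4.91 FPKM (1.99) and Id1, a target of bone morphogenetic protein signals, at 24.1 and 12.1 FPKM (0.93). In the ventral list 6 of 7 genes were compared, 3 were higher and 2 were lower (median 0.71). Chrdl1, which encodes the antagonist ventroptin, was at 133 and 4.47 FPKM (4.62), and the optic fissure gene Ntn1 was at 9.51 and 0.0704 FPKM (3.30), with an estimated 2.01 fragments in retina. Cyp1b1, a retinoid-converting enzyme of the ventral retina, was at 0.166 and 2.48 FPKM (-1.58), and Bmpr1b was listed at 0 in mNRPCs, with 1.94 FPKM in retina.

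Of 9 naso-temporal genes 8 were compared, with 2 higher, 3 lower and a median log2 ratio of -0.23. Of the higher genes, the ligand Efna5 was at 9.40 FPKM in mNRPCs and 2.57 FPKM in retina (1.54). The guidance receptors Epha4, at 0.171 and 7.82 FPKM (-2.91), and Epha5, at 2.79 and 7.20 FPKM (-1.11), were lower. In the optic stalk and hedgehog list 7 of 15 genes were compared, 4 were higher, 1 was lower and the median was 1.11. The hedgehog co-receptor Gas1 was at 233 and 14.6 FPKM (3.91), the transducer Smo at 30.3 and 4.05 FPKM (2.63) and the transcription factor Gli3 at 5.13 and 0.277 FPKM (2.26). The ligand Shh was listed at 0 in mNRPCs, with 1.73 FPKM in retina. The pathway target Ptch1 was listed at 0 in mNRPCs, with 0.0191 FPKM in retina. Both values come from 1 of its 2 RefSeq transcripts, and the other has no row here. That retina value is an estimated 0.735 fragments, below the 0.0781 FPKM that 3 fragments would give. The stalk factors Vax1 and Pax2, the latter on 1 transcript only, were listed at 0 in a library in which Gas1 and Smo were higher than in retina. Gas1 and Smo encode components of the hedgehog pathway, and its activity was not tested.

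Markers of other cell types differed between the libraries along with these factors. COUP-TFII is also known from venous endothelium and mesenchyme. The 5 endothelial markers summed to 0.0459 FPKM in mNRPCs, where Cdh5, Cldn5 and Emcn were listed at 0, and to 38.0 FPKM in retina, of which Kdr alone held 29.5 FPKM. The part of endothelial cells in the Nr2f2 levels was not tested. Of 8 markers of fibroblasts or periocular mesenchyme 5 were compared and 3 were higher in mNRPCs. These were Col3a1, at 449.8 FPKM in mNRPCs and 0.311 FPKM in retina, Foxc1, at 2.44 and 0.221 FPKM, and Pdgfrb, at 4.49 and 1.24 FPKM. Dcn was at 1.96 and 2.58 FPKM, Col1a1 was at 1.35 and 0.552 FPKM, Col1a2 was lower in mNRPCs at 0.0843 and 0.952 FPKM but under the filter, and Lum was listed at 0 in both. The list summed to 460.1 FPKM in mNRPCs and 5.96 FPKM in retina, nearly all of the first on Col3a1, and its part in the higher Nr2f1 and Nr2f2 was not tested. The lower Vax2, Tbx2 and Tbx3 stood beside rod, cone, bipolar and ganglion cell lists in which each compared marker was lower, 4 of 4, 4 of 4, 4 of 4 and 5 of 5. Of 4 amacrine markers 2 were lower, Slc6a9 was within 2-fold and Tfap2a was higher, at 31.3 FPKM in mNRPCs and 7.08 FPKM in retina. Both compared horizontal cell markers were lower. Each compared marker was also lower for Müller glia, 4 of 4, with sums of 31.6 FPKM in mNRPCs and 1171 FPKM in retina. The same held for pigment epithelium, 3 of 3, with sums of 0.309 and 70.4 FPKM. The part of these cell types in the lower factors was not tested.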

How the data were processed

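RNA of 1 mNRPC sample and 1 retina sample was sequenced. The authors deposited FPKM values for 106754 RefSeq transcripts. According to the study's methods reads were aligned with Bowtie 2 and FPKM were estimated with eXpress, while the submitters' processing notes name TopHat2 2.0.10 and the build GRCm38.p3. Which tool made the deposited values, and whether strand was used, is not given in the sources used here. Reads that fit several transcripts are divided by estimation, so sums per gene are more certain than single transcripts.

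Accessions were matched without version to the RefSeq table of GRCm38.p6 or to GENCODE M21. Symbols were assigned to 74283 rows (69.6%), with 93.2% of the mNRPC FPKM and 89.9% of the retina FPKM, and rows were summed per gene. Unmatched rows were mostly predicted transcripts and could belong to any gene, the 9 factors included. Values under 1e-06 were read as 0. A 0 can be a true absence or a failed estimate, which were not told apart here. Of 1415 genes of at least 50 FPKM in retina 49 were listed at 0 in mNRPCs, and of 1750 such genes in mNRPCs 4 were listed at 0 in retina.

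A pseudocount of 1 was added before log2, as in the study, which understates the change of low genes. Depth was estimated from the lowest FPKM times length over 6217 rows of at least 1500 bp. With 500 bp it was 6.48e+06 and 4.91e+06 fragments, and with 2500 bp 6.52e+06 and 5.54e+06. Intervals at 95% are Poisson (chi-square bounds on the estimated fragments) for levels, and for log2 ratios the distances to the level bounds were combined as the root of their summed squares. The detection floor was 3 fragments. Transcripts without a length were given the longest length of their gene. Intervals and floors cover counting error only. The calculation was tested on simulated data.

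The groups came from the labels. The 9 factors were named by role rather than by a threshold on their values, but these, the gene lists and the alternatives were chosen with earlier results of these data known. Named were all 9 factors with each transcript row, genes that overlap a factor or start within 5 kb of it, family genes of at least 1 FPKM and at most 4 genes with the largest log2 ratios of each other list. Genes named outside this rule (Rax, Ptch1, Rcor1 and markers) were chosen after their values were seen. Some list genes are counted but not reported here. Alternatives were the pseudocount, the filter, the threshold, the scaling, curated rows and 1 row per gene. Python 3.11.15, numpy 2.4.6, pandas 2.3.3, scipy 1.17.1 and matplotlib 3.10.9 were used.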

Additional observations from a re-analysis of the deposited data

How the results depend on the processing

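The direction of the 5 compared factors was the same under each alternative for scaling, pseudocount and transcript rows. When both libraries were rescaled to a common sum, Nr2f1 dropped under the threshold, at a log2 ratio of 0.83, which left 1 factor higher (Nr2f2, at 1.08) and 4 lower, with Tbx5 added at -1.55. Over all genes this rescaling gave 6349 lower genes, a median log2 ratio of -0.685 in place of -0.12 and a share of 30.2% higher among the genes called, against 44.9% as deposited and 50.9% at a minimum of 5 FPKM. Relative to the median of all genes Nr2f1 was at 1.38 as deposited and 1.52 after rescaling, and Nr2f2 at 1.63 and 1.77. A threshold of 2 left 0 factors higher and 2 lower (Vax2 and Tbx2), and over the 4 regional lists 7 genes higher and 2 lower in place of 11 and 7, fewer by construction. Rescaling to a common sum gave 10 higher and 10 lower over these lists. With a pseudocount of 0.1 Tbx3 was at -4.76, as it rests on a value of 0 in mNRPCs. Of 45 values of the 9 factors under 5 alternatives 31 moved by less than the counting error, 14 moved by more and 0 changed sign. Vax1, Tbx3, Tbx5, Pax2 and Foxd1 were listed at 0 in mNRPCs, and their counting limits hold only if that 0 is no failed estimate and, for Pax2, only for the 1 transcript with a row. No paired analysis was possible because neither group was replicated.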

Other observations

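Genes of proteins that work with these factors were also read. Of 11 cofactors of T-box, COUP-TF and Pax proteins 9 were compared, 3 were higher in mNRPCs, 1 was lower and the median log2 ratio was 0.61, against 24.5% higher, 30.0% lower and a median of -0.12 over all compared genes. The higher genes were Tle1, a Groucho co-repressor, at 36.8 FPKM in mNRPCs and 11.3 FPKM in retina (1.62), and the histone deacetylases Hdac1, at 71.2 and 24.4 FPKM (1.51), and Hdac2, at 102 and 44.5 FPKM (1.18). Bcl11a, which encodes a zinc finger partner of COUP-TF proteins, was listed at 0 in mNRPCs, with 2.15 FPKM in retina. Rcor1, a co-repressor gene used by most cells, was at 9.75e-05 FPKM in mNRPCs and was listed at 0 in retina, so a value near 0 in this table can be a failed estimate.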
